A study of Mus musculus with 12 samples.

Results

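Transcripts of cardiac ion channels and calcium handling proteins were examined in ventricles of mouse embryos at embryonic day 16.5. The list held 37 genes, chosen by name for their roles in excitation, calcium cycling and cell coupling, out of 18193 genes with a probe set named for them alone. A probe set was found for 36 of the 37, and where a gene had several, the one with the highest average log2 signal stood for it. Hcn4, a pacemaker channel gene, had no probe set named for it in the annotation used and was not analysed here. RNA was measured on 12 single-colour Affymetrix arrays, with 3 independent ventricles of each of 4 genotypes: double-null (Hdac2-Hopx knockout), Hdac2-null, Hopx-null and wild type. The labels give no strain and do not say whether the alleles were deleted in the whole embryo or in the heart alone. Whole ventricle was used, so a lower signal from fewer cells of a type and one from less RNA per cell cannot be told apart.

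A heart myocyte contracts after voltage-gated calcium channels in its membrane admit a small calcium current. This current opens ryanodine receptors on the sarcoplasmic reticulum and releases the stored calcium that drives contraction. A calcium pump returns most of it to the store, and a sodium-calcium exchanger removes the rest from the cell. Potassium channels end the action potential and set the resting potential, and gap junctions carry the impulse from cell to cell. The protein made by Hdac2 removes acetyl groups from histones, and that made by Hopx is an unusual homeodomain protein without DNA binding of its own. The series addressed how loss of either or both affects the embryonic heart.

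The targeted genes followed the labels. Hdac2 signal was between 4.04 and 4.32 units on the 6 double-null and Hdac2-null arrays, against 4442 to 5683 on the 6 Hopx-null and wild-type arrays. Hopx signal was 1656 to 2066 on the arrays labelled as lacking it, against 8577 to 12240.1 on the others. The floor for detection was 82.5 units, 0.1 times the average trimmed mean of the arrays, and all 8 cardiomyocyte markers exceeded it on all 12 arrays. Of 8 fast skeletal or embryonic skeletal muscle markers, 6 stayed below the floor on all 12 arrays. Sex was unbalanced, since Xist, which marks female samples, was 4988 to 6130.4 units on replicate 1 of every genotype and also on wild type 2, and elsewhere was 22.2 or less. Wild type 1 stood apart with a Gapdh 3′ to 5′ log2 ratio, a measure of RNA integrity, of 1.33, against 0.842 to 1.07 on the other 11 arrays. It did not stand apart by the same ratio for beta-actin, at 2.76 against 2.63 to 2.80 on the other 11.

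Most of the machinery was present in the ventricle at this stage. Of the 36 genes, 30 exceeded the floor on all 12 arrays, 2 exceeded it on some arrays, and 4 were undetected, at or below it on every array. The undetected genes were Hcn2, a pacemaker channel (5.05 to 5.31 units over the 12 arrays), Kcnj2, which encodes a channel of the resting potassium current (4.82 to 5.002), Gja5, which encodes connexin 40 (4.59 to 4.71), and Cacna1h, a T-type calcium channel (14.1 to 74.3). An undetected gene here is one whose probe sets gave no signal over the floor, which does not show that its transcript was absent. The authors' method of computing signals was not settled from the sources used here, so the floor and the word undetected refer to the deposited scale alone. Among the detected genes, 23 had more than 1 probe set, and 14 of these also had a probe set below the floor on all arrays. Kcnj5, for instance, read 2674 to 3399 units with 1 probe set and 4.36 to 4.42 with the other. Hcn2, Kcnj2 and Gja5 had a single probe set each, and Cacna1h had 2, both below the floor. Kcnd2 fell short of the floor on Hdac2-null 2 (80.7 units) and Kcnd3 on double-null 2 (77.1 units). These were the genes nearest to the floor from above, and Cacna1h the nearest from below.

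**Figure D1:**
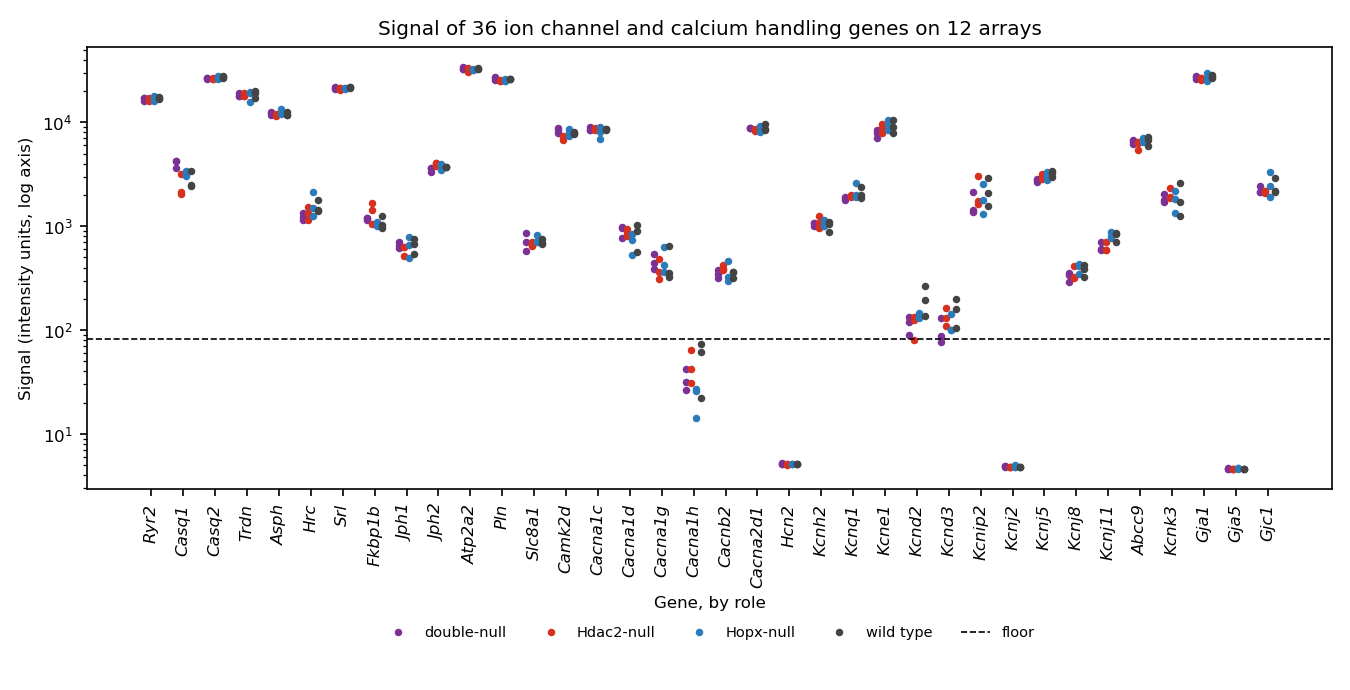
Signal of the 36 genes with a probe set on each of the 12 arrays, on a log axis in intensity units, ordered by role and coloured by genotype. The dashed line is the floor of 82.5 units. Hcn2, Kcnj2, Gja5 and Cacna1h lie under it on all arrays, and levels of different genes are not comparable because each comes from another probe set.

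The genotypes were compared to ask whether loss of Hdac2, Hopx or both alters these transcripts. No member passed the test in any of 8 comparisons, which set every null genotype beside wild type, set double-null beside both single nulls, averaged each loss over the other, and tested the interaction of the losses. A gene was called at a limma adjusted p under 0.05 over all 9667 genes tested, of which 32 were members. In double-null against wild type 0 of 32 members were called, where 0.031% of all genes were. The count was also 0 of 32 in Hdac2-null (0.0207% of all genes) and in Hopx-null ventricles (0.0103%). An unadjusted p under 0.05 was reached by 5 members in double-null (7.31% of all genes), 3 in Hdac2-null (5.11%) and 0 in Hopx-null ventricles (2.65%), each against wild type. Of the 32, 13 had a higher and 19 a lower mean in double-null ventricles, with a median log2 fold change of -0.02, against -0.01 over all genes. In Hdac2-null ventricles 7 were higher and 25 lower, with a median of -0.06 against -0.01 over all genes, 44.1% of which were higher. In Hopx-null ventricles 15 were higher and 17 lower, with medians of -0.01 for the members and -0.00 for all genes. These 3 comparisons share the wild-type arrays.

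**Figure D2:**
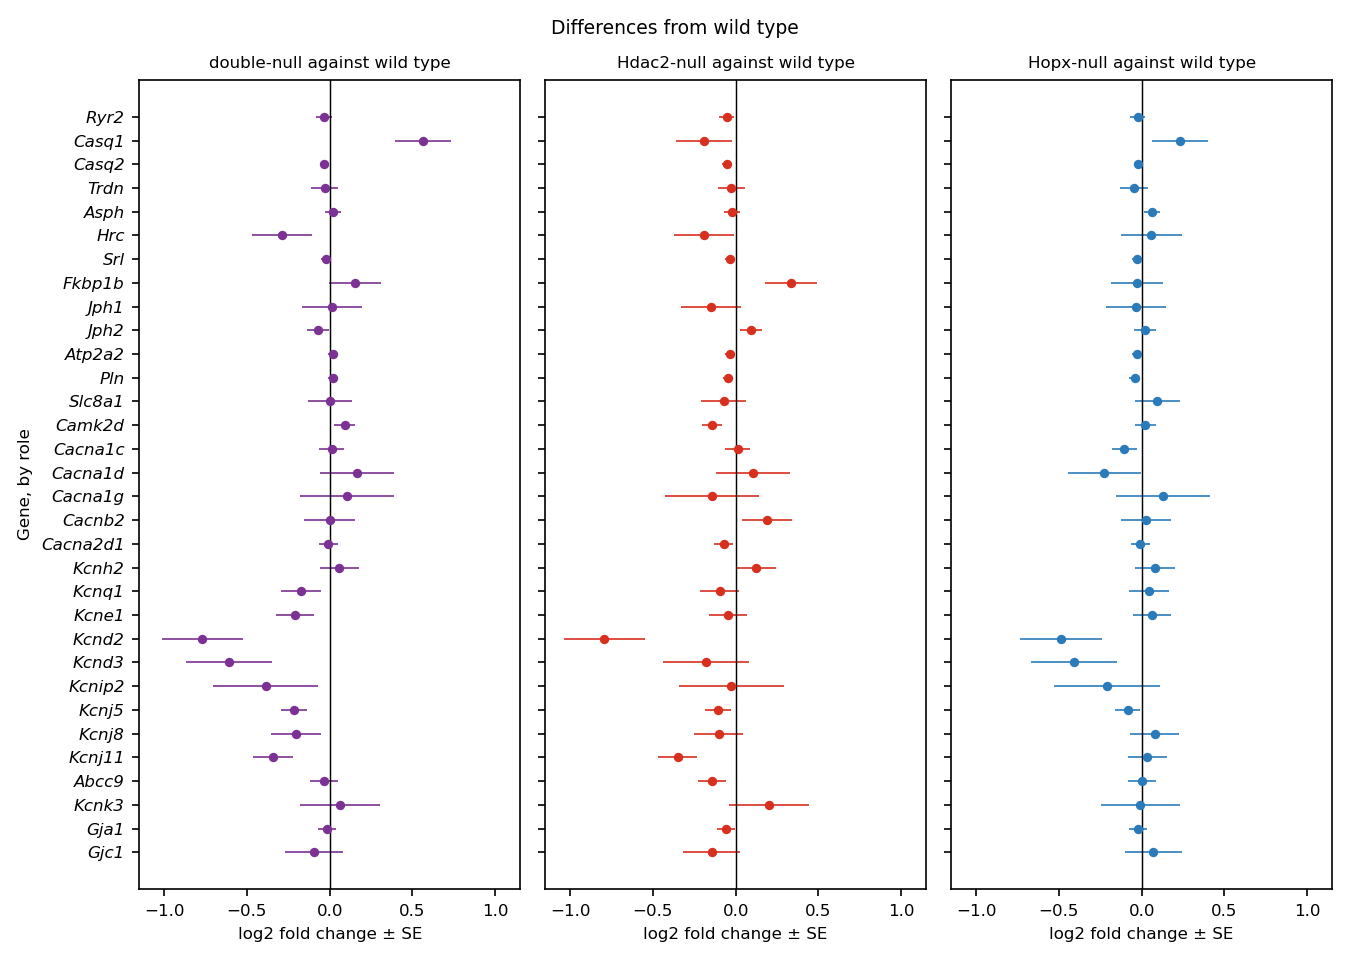
Log2 fold change against wild type with its standard error for the 32 tested members, in double-null, Hdac2-null and Hopx-null ventricles from left to right. Casq1, Kcnd2 and Kcnj11 lie farthest from 0 relative to their errors in double-null ventricles, and no member passed the test in any panel.

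The within-group SD of log2 signal had a median of 0.15 over the 32 members, against 0.14 over all genes tested, and was under 0.1 for 12 of them. Means of the 4 genotypes lay within 0.1 log2 of each other for 9 members. The steadiest member was Casq2 (SD 0.03), and the most variable was Kcnip2 (SD 0.45), a subunit of the transient outward potassium channel.

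**Figure D3:**
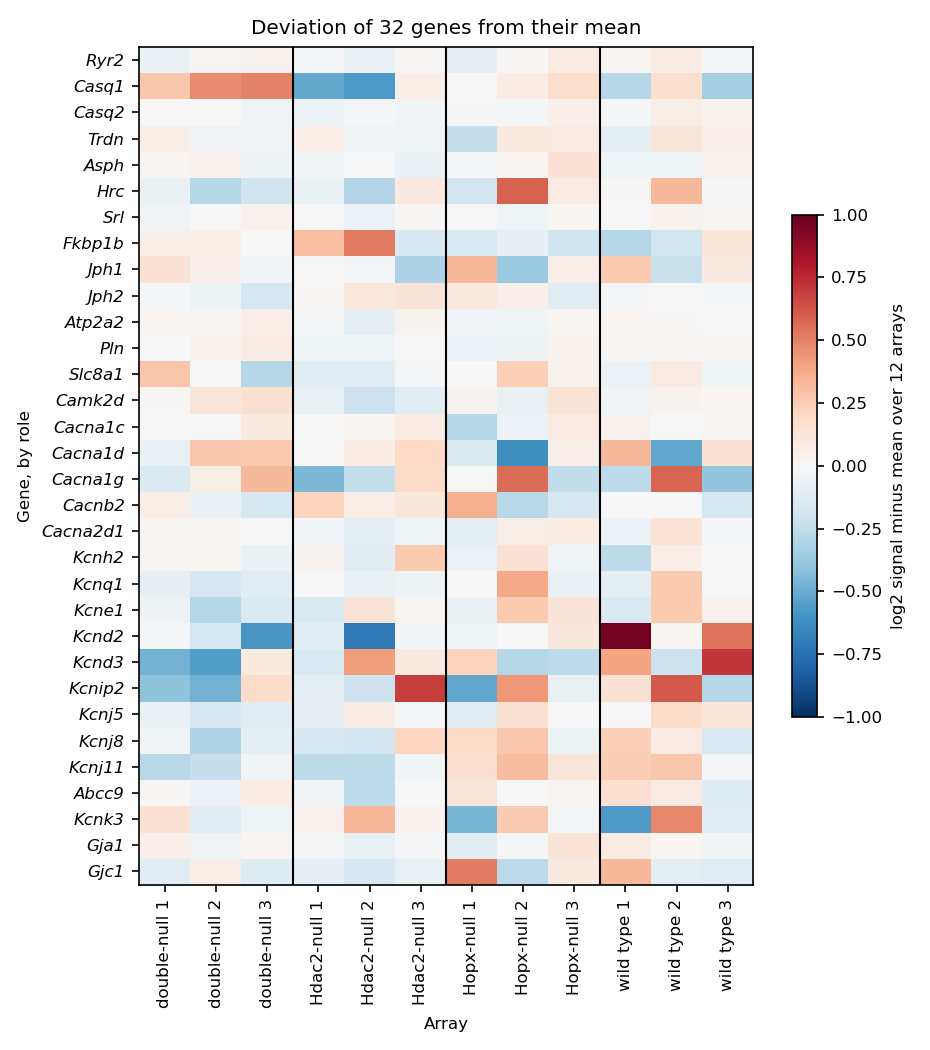
Deviation of each of the 32 tested members, in rows by role, from its mean log2 signal over the 12 arrays, in columns by genotype. Casq1 is above its mean on all 3 double-null arrays, Kcnj11 is below it on all 6 arrays that lack Hdac2, and several genes deviate the same way on replicate 2 of Hopx-null and wild type.

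Among release and store proteins of the sarcoplasmic reticulum, 10 of 10 members were tested. Ryr2, the cardiac ryanodine receptor, read 16029.7, 16931 and 17155 units on the double-null arrays, 16532, 15987 and 16932 on Hdac2-null, 15841, 16889 and 17797 on Hopx-null, and 17134, 17642 and 16566 on wild type. The 4 groups overlapped, and its log2 difference from wild type lay between -0.05 and -0.02 in the 3 null groups (SE 0.05 for each). Trdn (triadin) was 15502 to 19838 and Srl (sarcalumenin) 20484 to 21904 over all arrays, both within 0.05 log2 of wild type in each null group. Other Trdn probe sets did not move alike in double-null ventricles. There 1 lay above every wild-type value (9486 to 10167 against 8352 to 9071) and 1 below (4469 to 5192 against 5228 to 6205), and the rest overlapped. Asph, whose products include junctin, read 11956, 12271 and 13451 on the Hopx-null arrays, against 11757, 11769 and 12504 on wild type, groups that overlapped (log2 0.06, SE 0.05, adjusted p = 1). The Asph difference was 0.10 without Hopx-null 1, 0.01 without Hopx-null 3 and 0.11 with the second probe set. In double-null ventricles a dimmer Asph probe set lay below every wild-type value (656 to 712 against 840 to 1041). So did another (1040 to 1185 against 1268 to 1705), while the remaining detected Asph probe sets, including the one used, overlapped wild type. Hrc, a histidine-rich calcium-binding protein of the store, averaged 1247 ± 96.8 in double-null, 1338 ± 181 in Hdac2-null, 1623 ± 452 in Hopx-null and 1528 ± 209 in wild-type ventricles (SD, n = 3 each). Every double-null Hrc value was below every wild-type value, with a log2 difference of -0.29 (SE 0.18). Jph1, a junctophilin better known from skeletal muscle, overlapped between all groups (491.6 to 794 units).

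The calsequestrins buffer calcium inside the store, Casq2 in cardiac muscle and Casq1 mainly in fast skeletal muscle. Casq1 gave the smallest p of any member in double-null against wild type. Its signal was 3656, 4215 and 4282 on the double-null arrays, 2125, 2044 and 3173 on Hdac2-null, 3029.6, 3189 and 3421 on Hopx-null, and 2496, 3389 and 2415 on wild type. All 3 double-null values lay above all 9 others, and the other 3 groups overlapped one another. Means were 4051 ± 344 in double-null and 2767 ± 540.1 in wild-type ventricles (SD, n = 3 each), a 1.48-fold higher level (log2 0.56, SE 0.17, 95% interval 0.19 to 0.94) that did not pass the test (adjusted p = 0.612). Against Hdac2-null ventricles, at 2447 ± 629.8, the difference was 1.69-fold (log2 0.75, SE 0.17, adjusted p = 0.368), a comparison singled out after the values were seen. In Hopx-null ventricles Casq1 measured log2 0.23 above wild type (SE 0.17, adjusted p = 1), 0.39 without wild type 2 and 0.14 without wild type 3. Averaged over Hdac2 status, arrays lacking Hopx were 1.41-fold higher in Casq1 (log2 0.49, SE 0.12, adjusted p = 0.472). Whether the losses add was tested by their interaction, which measured log2 0.52 (SE 0.24, adjusted p = 0.942). Casq2 read 26564 ± 411 in double-null, 26185 ± 356 in Hdac2-null, 26807 ± 700.3 in Hopx-null and 27186 ± 617 in wild-type ventricles, with log2 differences from wild type of -0.03, -0.05 and -0.02 in that order (SE 0.03).

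Markers of fast skeletal muscle were read beside Casq1, since that tissue is its best known source. Of 8 markers, Tnni2 exceeded the floor on some arrays and Ckm, which heart muscle also makes, on all, and Tnnt3, Myh3, Myh8, Mylpf, Myod1 and Myog were between 4.22 and 6.09 units on all arrays, near the bottom of the scale. Summed signal of the list was 6626 to 7841 in double-null, 8019 to 9189 in Hdac2-null, 7451 to 8439 in Hopx-null and 7361 to 8492 in wild-type ventricles, and 6047 to 8418 units of each array's sum were Ckm. The part of skeletal muscle in the Casq1 values was not tested. Tnni2, the fast skeletal troponin I, was 364 to 551 in double-null and 439 to 926 in Hdac2-null ventricles, against 23.3 to 134 in Hopx-null and 27.7 to 84.6 in wild-type ventricles. Across the 12 arrays Casq1 did not correlate with the mean of the 2 detected markers (Pearson r = 0.06, Spearman rho = 0.06, permutation p = 0.856 for both, adjusted p = 0.856 and 0.896 over 6 relations). Without the 2 arrays farthest from the median, r was 0.35. With group means removed r was 0.54 and rho 0.38 (permutation p = 0.0711 and 0.218, adjusted p = 0.107 and 0.327), and r was 0.12 without the 2 farthest arrays.

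The promoters of the 2 calsequestrin genes are shown because these paralogs were the steadiest member (Casq2) and the member with the smallest p in double-null ventricles (Casq1). RefSeq promoter sequence of build GRCm38.p6, 250 bases before to 50 after the gene start, was at hand for 25 of the 37 members. The Casq1 window is chr1:172219846-172220145 on the minus strand, with 60.3% G and C, and the Casq2 window is chr3:102086165-102086464 on the plus strand, with 44.7%. Both are printed 5′ to 3′ along the gene, and capitals mark matches to the E-box (CANNTG) and to the MEF2 site, each searched on both strands.
Casq1: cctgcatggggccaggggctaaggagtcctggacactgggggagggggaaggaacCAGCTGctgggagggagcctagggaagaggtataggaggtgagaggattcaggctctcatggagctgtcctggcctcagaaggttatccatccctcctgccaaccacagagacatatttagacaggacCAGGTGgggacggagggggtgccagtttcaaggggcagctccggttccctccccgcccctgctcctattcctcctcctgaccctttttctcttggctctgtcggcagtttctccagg
Casq2: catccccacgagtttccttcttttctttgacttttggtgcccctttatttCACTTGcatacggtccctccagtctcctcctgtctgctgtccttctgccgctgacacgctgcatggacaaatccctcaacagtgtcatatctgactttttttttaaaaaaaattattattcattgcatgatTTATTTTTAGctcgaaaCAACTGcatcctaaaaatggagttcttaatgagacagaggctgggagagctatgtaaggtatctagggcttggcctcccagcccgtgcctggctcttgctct
Counted from the gene start, the Casq1 window held E-boxes at -195 and -67 and no MEF2 match. The Casq2 window held E-boxes at -200 and -52 and a MEF2 match at -69. An E-box was found in 72.3% of all 32851 promoter windows and in 19 of the 25 members. A MEF2 match was found in 3.19% of all windows and, among members, in those of Casq2 and Abcc9. The GATA motif AGATAA was found in 11.2% of all windows and in those of Gja1, Pln and Slc8a1, and a CArG box in 1.63% of all windows and in 0 of 25 members. These matches describe the letters of the windows and were not tied to the measured levels.

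Fkbp1b, which encodes the calstabin that binds the cardiac ryanodine receptor, had the smallest p among members with a higher mean in Hdac2-null ventricles. It read 1429, 1658 and 1038 on the Hdac2-null arrays, against 950.3, 1021 and 1260.4 on wild type, and 1 Hdac2-null value lay inside the wild-type range. The log2 difference was 0.34 (SE 0.16, adjusted p = 0.925), and it was 0.19 without Hdac2-null 2 and 0.53 without Hdac2-null 3. In double-null ventricles Fkbp1b averaged 1189 ± 31.1, against 1077 ± 163 in wild type (log2 0.15, SE 0.16, adjusted p = 0.818), a value that was 0.07 without wild type 1 and 0.27 without wild type 3. Jph2, the junctophilin that holds the membrane close to the store in heart muscle, read 3755, 4007 and 4077 on the Hdac2-null arrays, against 3694, 3706 and 3687 on wild type. The groups did not overlap, and the log2 difference was 0.09 (SE 0.07, adjusted p = 0.925). On the double-null arrays Jph2 was 3666, 3600.1 and 3293, below every wild-type value (log2 -0.07, SE 0.07).

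The pump, its regulator, the exchanger and the calcium-dependent kinase differed from wild type by log2 -0.14 to 0.09 in the 3 null groups, and none passed the test. Atp2a2, which encodes the SERCA2 calcium pump, averaged 33145 ± 653 in double-null, 31908 ± 1367 in Hdac2-null, 32026 ± 688 in Hopx-null and 32668 ± 321 in wild-type ventricles (SD, n = 3 each). Pln, which encodes phospholamban, the inhibitor of that pump, averaged 26411 ± 725, 25199.5 ± 439 and 25279.5 ± 913 in double-null, Hdac2-null and Hopx-null ventricles in that order, against 26024 ± 178 in wild type. Both genes differed from wild type by at most 0.05 log2 with a standard error of 0.03. Slc8a1, the sodium-calcium exchanger, averaged 711 ± 139 in double-null, 667 ± 27.9 in Hdac2-null and 751 ± 68.3 in Hopx-null ventricles, against 702 ± 37.5 in wild type. In Hopx-null ventricles its log2 difference was 0.09 (SE 0.14, adjusted p = 1), and it was 0.02 without Hopx-null 2. A second Slc8a1 probe set measured -0.15.

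Camk2d, a calcium and calmodulin dependent kinase that acts on the pump regulator and the release channel, read 7885, 8491 and 8702 on the double-null arrays, 7401, 6712 and 7233 on Hdac2-null, 7981, 7399 and 8585 on Hopx-null, and 7636, 8002 and 7908 on wild type. The Hdac2-null values lay below all wild-type and all double-null values. Against wild type the log2 difference was -0.14 (SE 0.06, adjusted p = 0.925) in Hdac2-null and 0.09 (SE 0.06, adjusted p = 0.752) in double-null ventricles. Double-null exceeded Hdac2-null by log2 0.23 (SE 0.06, adjusted p = 0.368), a comparison singled out after the values were seen. Other Camk2d probe sets did not all move alike, since in double-null against Hdac2-null 3 others over the floor measured 0.25, 0.13 and 0.07 and a further one measured -0.53 (SE 0.49). The interaction was log2 0.21 (SE 0.09) for Camk2d and 0.11 (SE 0.04) for Pln, and these were the members with an unadjusted p under 0.05 in that test (2 of 32, where 4.18% of all genes reached it), each with an adjusted p of 0.942.

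Voltage-gated calcium channels carry the trigger current. Cacna1c, the pore of the cardiac L-type channel, averaged 8622 ± 296 in double-null, 8621 ± 202 in Hdac2-null, 7989 ± 1016 in Hopx-null and 8543 ± 120.2 in wild-type ventricles (SD, n = 3 each). The Hopx-null arrays read 6917, 8111 and 8938, against 8675, 8439 and 8516 on wild type, and overlapped them. The log2 difference of -0.10 (SE 0.07, adjusted p = 1) was -0.00 without Hopx-null 1 and -0.19 without Hopx-null 3. Its auxiliary subunits lay near wild type. Cacna2d1 was 8128 to 9536 over all arrays, and Cacnb2 read 419, 375 and 388 on the Hdac2-null arrays, above the wild-type values of 359.8, 360.2 and 318 (log2 0.19, SE 0.15, adjusted p = 0.925). Cacna1d, a second L-type pore, and Cacna1g, a T-type pore, varied widely between replicates. Cacna1g was highest on wild type 2 (639.8) and Hopx-null 2 (627), and Cacna1d was lowest on the same arrays (566 and 528).

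Voltage-gated potassium channels repolarise the myocyte. Kcnh2 and Kcnq1, the pores of the rapid and slow delayed rectifiers, and Kcne1, the partner of Kcnq1, were detected on every array. Kcnq1 averaged 1847 ± 51.4 in double-null, 1948 ± 40.3 in Hdac2-null, 2171 ± 379 in Hopx-null and 2095 ± 269 in wild-type ventricles (SD, n = 3 each). Its log2 difference from wild type was -0.17 (SE 0.12) in double-null ventricles, and Kcne1 measured -0.21 (SE 0.12) there. Kcnh2 differed by at most 0.13 (SE 0.12) in any null group.

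Kcnd2 and Kcnd3 encode the pores of the fast transient outward current, and Kcnip2 the subunit that shapes it. Kcnd2 read 134, 120.0 and 90.1 on the double-null arrays, 125, 80.7 and 133 on Hdac2-null, 131, 136 and 146 on Hopx-null, and 263, 138 and 197 on wild type. Every double-null and Hdac2-null value was below every wild-type value, and wild type 1, the array with the high Gapdh ratio, held the highest value. The level was 1.70-fold lower in double-null (log2 -0.77, SE 0.25, 95% interval -1.31 to -0.23, adjusted p = 0.63) and 1.73-fold lower in Hdac2-null ventricles (log2 -0.79, SE 0.25, adjusted p = 0.893). In Hopx-null ventricles it measured -0.49 (SE 0.25, adjusted p = 1), and without wild type 1 it was -0.26. Without wild type 1 the double-null and Hdac2-null differences were -0.54 and -0.57. A second Kcnd2 probe set read 70.5, 53.0 and 34.8 in double-null and 70.2, 53.2 and 62.3 in Hdac2-null ventricles, against 244, 81.0 and 129.6 in wild type. All 6 values of the double-null and Hdac2-null groups, and wild type 2, were below the floor there, so this probe set gives no size for the difference. With the floor at 0.2 times the average trimmed mean, all 9 null values of the first probe set lay below it, and the -0.31 it gave in each null group reflects the floor and the wild-type values alone.

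Kcnd3 read 87.8, 77.1 and 130.3 on the double-null arrays, 109, 163 and 129 on Hdac2-null, 142, 99.5 and 101 on Hopx-null, and 160.1, 105 and 199 on wild type. The groups overlapped in each comparison with wild type. Its log2 difference was -0.61 (SE 0.26, adjusted p = 0.671) in double-null and -0.41 (SE 0.26, adjusted p = 1) in Hopx-null ventricles, and in Hopx-null it was -0.66 without wild type 2 and -0.20 without wild type 3. With the higher floor it was -0.09, where all 3 Hopx-null values lay below that floor. Kcnip2 ranged from 1313 to 3054 within the 12 arrays and overlapped between all groups.

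Inward rectifier, ATP-sensitive and leak channels hold the resting potential and couple it to metabolism. Kcnj11 encodes the Kir6.2 pore of the ATP-sensitive potassium channel. It read 587, 609.6 and 702 on the double-null arrays, 595, 594 and 699 on Hdac2-null, 801, 883 and 776 on Hopx-null, and 844, 861 and 703 on wild type. All 6 arrays without Hdac2 lay below all 6 with it, though double-null 3 and wild type 3 differed by less than 2 units. Among all genes, 0.269% separated in this direction in that comparison. The level in double-null ventricles was 1.27-fold lower than wild type (log2 -0.34, SE 0.12, adjusted p = 0.657) and 1.27-fold lower in Hdac2-null (log2 -0.35, SE 0.12, adjusted p = 0.893), and in Hopx-null ventricles it measured 0.03 (SE 0.12). Averaged over Hopx status, the difference for loss of Hdac2 was log2 -0.36 (SE 0.08, 95% interval -0.55 to -0.18), the smallest p of any member there, with an adjusted p of 0.292. A second Kcnj11 probe set was at 4.33 to 4.38 units on all arrays, below the floor.

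Abcc8 encodes SUR1, a regulatory partner of Kir6.2, and lies next to Kcnj11 in the reference annotation with no other protein-coding gene between them. It belongs to a further list of 116 genes of cardiac excitation and calcium handling. Its signal was 868, 785 and 873 on the double-null arrays, 841, 701 and 737 on Hdac2-null, 1105, 1410.0 and 1062 on Hopx-null, and 1328, 1191 and 915 on wild type. As for Kcnj11, all 6 arrays without Hdac2 lay below all 6 with it. The log2 difference from wild type was -0.43 (SE 0.15, adjusted p = 0.657) in double-null and -0.58 (SE 0.15, adjusted p = 0.892) in Hdac2-null ventricles. Averaged over Hopx status it was -0.54 (SE 0.11, adjusted p = 0.189), and without wild type 3 it was -0.61 and passed (adjusted p = 0.0433). In that fit 27 of all genes tested passed, against 2 with all arrays. Wild type 3 held the lowest Abcc8 value of its group, and was the wild-type array without high Xist signal (9.50 units).

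**Figure D4:**
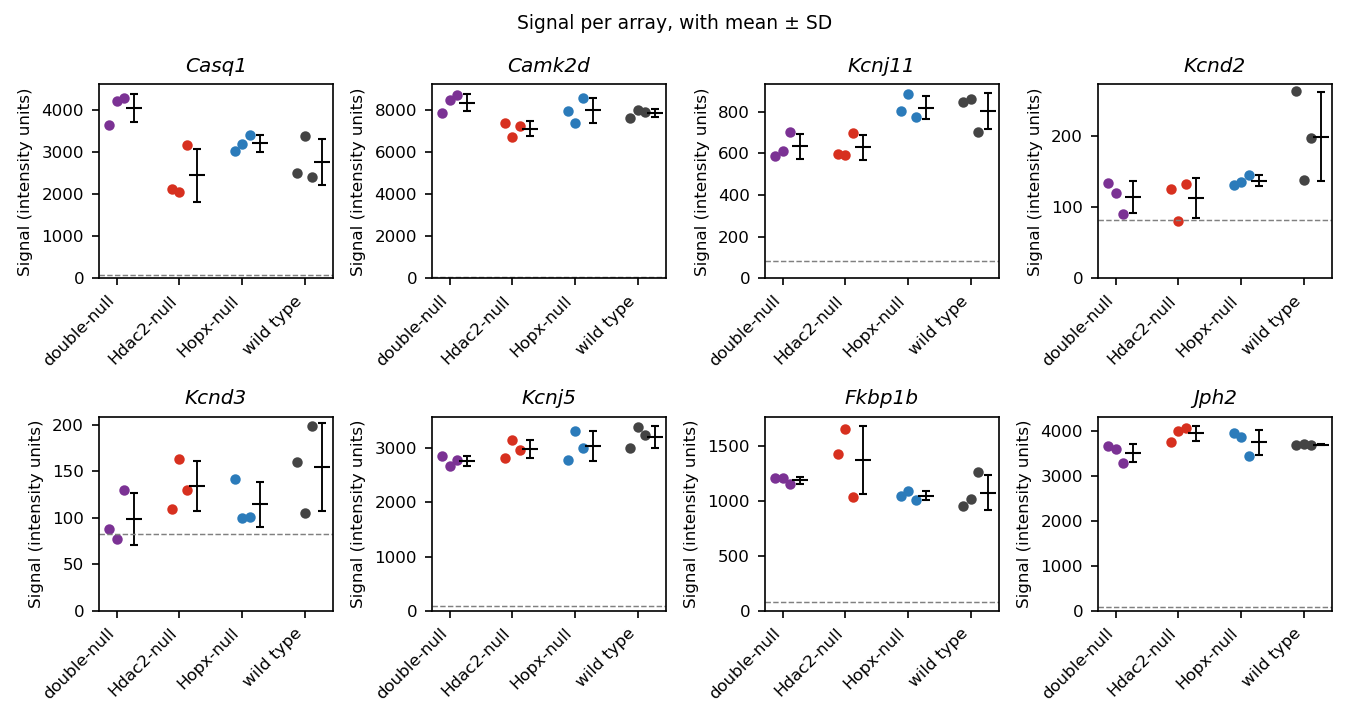
Signal per array in intensity units for 8 members, with the mean ± SD of each group of 3 beside the points and the floor as a dashed line. All 3 double-null values of Casq1 lie above the other groups, and all 6 Kcnj11 values without Hdac2 lie below the 6 with it, while Kcnd2 and Kcnd3 lie close to the floor.

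Kcnj8 and Abcc9 encode Kir6.1 and SUR2, the other pore and regulator of ATP-sensitive channels, and are also neighbours with no protein-coding gene between them. Both are known markers of pericytes, and SUR2 is made by heart muscle as well. Kcnj8 averaged 328 ± 31.4 in double-null, 353 ± 56.8 in Hdac2-null, 399 ± 45.3 in Hopx-null and 378 ± 50.3 in wild-type ventricles, and Abcc9 averaged 6496 ± 289.9, 6042 ± 567, 6677 ± 293 and 6676 ± 669 in the same groups (SD, n = 3 each). Over the 12 arrays they correlated at Pearson r = 0.62 (permutation p = 0.0257) and Spearman rho = 0.65 (permutation p = 0.0261), with adjusted p of 0.077 and 0.0782 over 6 relations. With group means removed r was 0.68 (permutation p = 0.0153, adjusted p = 0.077), and without the 2 arrays farthest from the median it was 0.60. That permutation treated the 12 deviations as exchangeable, which they are not, so its p may be too small. Summed signal of 8 smooth muscle and pericyte markers, of which 7 exceeded the floor and Vtn did not, was 33022 to 36028 in double-null, 33410.0 to 37154 in Hdac2-null, 30169 to 35283 in Hopx-null and 28958 to 33509 in wild-type ventricles. Of each array's sum, 18217 to 26483 units were Acta2. In double-null, Hdac2-null, Hopx-null and wild-type ventricles Rgs5 averaged 4795, 4508, 5226 and 5052, and Pdgfrb 1304, 1346, 1572 and 1469. In the same order Acta2 averaged 24744, 25306, 21695 and 22241, Tagln 555, 789, 653 and 475, and Myh11 182, 178, 187 and 116. Cspg4 averaged 779, 935, 913 and 839, and Notch3 1732, 1749, 1733 and 1755. The detected markers thus did not share a direction. The part of smooth muscle cells and pericytes in the Kcnj8 and Abcc9 values was not tested.

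Kcnj5 encodes a subunit of the acetylcholine-gated potassium channel, which is best known from the atrium. It read 2856, 2674 and 2776 on the double-null arrays, 2829, 3158 and 2974 on Hdac2-null, 2778, 3325 and 3009 on Hopx-null, and 3001, 3399 and 3249 on wild type. Double-null values lay below all wild-type values, at 1.16-fold lower (log2 -0.21, SE 0.08, 95% interval -0.39 to -0.04, adjusted p = 0.657). All 8 atrial markers exceeded the floor on at least some arrays (Sln not on Hopx-null 2), and their summed signal was 57515 to 71380 in double-null, 62647 to 68053 in Hdac2-null, 62606 to 72202 in Hopx-null and 66986 to 79842 in wild-type ventricles. Of each array's sum, 15436.5 to 28863 units were Nppa and 18242 to 23586 were Myl4. The part of atrial tissue in the Kcnj5 values was not tested. Kcnj5 did not correlate with the atrial mean over the 12 arrays (Pearson r = -0.06, permutation p = 0.846, adjusted p = 0.856, Spearman rho = -0.04, permutation p = 0.896). Within groups the correlation was negative (r = -0.59, permutation p = 0.0419, adjusted p = 0.0838), and it was -0.27 without the 2 arrays farthest from the median. Kcnk3, which encodes the TASK-1 leak channel, ranged from 1246 on wild type 1 to 2577 on wild type 2, wider than any difference between groups.

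Gja1 and Gjc1, the detected gap junction genes, overlapped between the groups on the probe sets used. Gja1, which encodes connexin 43 of the working ventricle, averaged 27120.0 ± 813 in double-null, 26284 ± 632 in Hdac2-null, 27029 ± 2315 in Hopx-null and 27428 ± 1109.7 in wild-type ventricles (SD, n = 3 each), within 0.06 log2 of wild type (SE 0.05). Another bright Gja1 probe set was lower on all Hdac2-null arrays (22337.5 to 23186) than on all others (23379 to 25597). The remaining Gja1 probe sets overlapped between Hdac2-null and wild type. The dimmest Gja1 probe set was lowest on wild type 1 (335) and Hopx-null 1 (399) and between 760.1 and 1358 on the other 10 arrays. The dimmer Ryr2 probe set was likewise lowest on those arrays (1093 and 878, against 1594 to 2494). Gjc1, which encodes connexin 45, was 3297 on Hopx-null 1 and 2888 on wild type 1, and 1917 to 2447 on the others. Gja5 was undetected, as given above.

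Counts of members whose groups did not overlap are given beside the share of all genes that did the same. In double-null against wild type, 1 member was higher on all 3 arrays (6.31% of all genes) and 5 were lower (8.61%), namely Hrc, Jph2, Kcnd2, Kcnj5 and Kcnj11. In Hdac2-null against wild type 2 were higher (3.89%), Jph2 and Cacnb2, and 5 were lower (5.69%), namely Casq2, Pln, Camk2d, Kcnd2 and Kcnj11. In Hopx-null against wild type there were 0 of 32 in either direction, where 1.89% of genes were higher and 2.53% lower. Kcnd2 and Kcnj11 were named as lower in both double-null and Hdac2-null ventricles, but both comparisons use the same wild-type arrays. The share of all genes that were lower in both was not counted. Kcnd2 also measured log2 -0.49 (SE 0.25) in Hopx-null ventricles, where the groups overlapped, and its values lay close to the floor.

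The remaining comparisons also held 0 of 32 called members. In double-null against Hdac2-null (0.0103% of all genes called), 3 members had an unadjusted p under 0.05 (11.3% of all genes), namely Casq1, Camk2d and Jph2. There 3 members were higher on all arrays (12.9%), Casq1, Camk2d and Cacna2d1, and 3 lower (12.7%), Jph2, Cacnb2 and Kcnq1. In double-null against Hopx-null (0.0207% called) 2 members, Kcnj11 and Kcne1, had an unadjusted p under 0.05 (8.13%), 2 were higher on all arrays (6.19%), Casq1 and Fkbp1b, and 2 lower (8.14%), Kcnq1 and Kcnj11. For loss of Hdac2 averaged over Hopx status (0.0207% called) 3 members had an unadjusted p under 0.05 (8.96%), namely Kcnj11, Kcnd2 and Fkbp1b. No member was higher on all 6 arrays without Hdac2 (0.341% of all genes). For loss of Hopx averaged over Hdac2 status (0.0103% called) 3 members had an unadjusted p under 0.05 (8.73%), namely Casq1, Camk2d and Kcnd3, and 0 of 32 separated in either direction (0.186% of all genes higher and 0.217% lower). The interaction called 0% of all genes.

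Of the further list of 116 excitation and calcium genes, 98 had a probe set and 57 were tested, and 0 were called against wild type in any null group. In double-null ventricles 24 had a higher and 33 a lower mean (median log2 -0.03), in Hdac2-null 23 and 34 (-0.02), and in Hopx-null 25 and 32 (-0.01), near the medians of all genes. The smallest p among lower genes belonged in double-null to Gja4, the connexin of arterial endothelium (89.9 ± 10.02 in double-null against 124 ± 18.4 in wild type, log2 -0.44, SE 0.15, adjusted p = 0.657), followed by Abcc8. Gja4 lay close to the floor of 82.5 units, at 99.96, 79.9 and 89.9 on the double-null arrays, and double-null 2 was below it. In Hdac2-null ventricles the smallest p among lower genes belonged to Abcc8 and to Gja3, another connexin gene (6231 ± 583 in Hdac2-null against 7596 ± 792 in wild type, log2 -0.28, SE 0.08, adjusted p = 0.893). Among higher genes in Hdac2-null ventricles these were the plasma membrane calcium pumps Atp2b4, at log2 0.78 (SE 0.34, adjusted p = 0.925) and over the floor on 10 of 12 arrays, and Atp2b1, at 0.21 (SE 0.12, adjusted p = 0.925). In double-null ventricles they were Akap6, an anchoring protein of the release complex, at 0.18 (SE 0.09, adjusted p = 0.677) and again Atp2b1, at 0.18 (SE 0.12, adjusted p = 0.745). In Hopx-null ventricles the 2 genes with the smallest p in each direction were, among lower genes, Tmem38b, a counter-ion channel of the store (1206 ± 42.3 in Hopx-null against 1407 ± 8.75 in wild type, log2 -0.22, SE 0.09), and the mechanosensitive channel Piezo1 (-0.48, SE 0.23), and among higher genes Popdc3 (0.12, SE 0.09) and the caveolin Cav3 (0.14, SE 0.13), each with an adjusted p of 1.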

How the data were processed

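Ventricular RNA was hybridised as biotinylated cRNA, per the labels' protocols. For 45101 probe sets the authors deposited linear intensity values. MAS5 is named, without a version, in the submitters' processing notes, while the handling of background and scale was not given in the sources used here. Trimmed means of the arrays lay between 818 and 830.3 units and dim probe sets such as that of Kcnj2 were nearly constant at 4 to 5 units, so whether the deposited values are MAS5 signals was not settled. No further normalisation was applied. Signals under a floor of 82.5 units (0.1 times the trimmed mean, averaged over arrays) were set to it, so log2 fold changes of genes near it understate differences. Platform annotation named 34945 probe sets with 1 gene and 932 with several, and symbols of 34741 were updated by gene identifier. Genes under the 40th percentile of mean signal, or at the floor on all 12 arrays, were not tested, which left 9667. Differences were tested with limma 3.58.1 (R 4.3.3), a coefficient for each genotype and every array in the fit (8 residual degrees of freedom, intensity trend, Benjamini-Hochberg adjustment within each of 8 comparisons). The fit was tested on simulated data. Correlations used 100000 permutations in Python 3.11.15 with scipy 1.17.1, over 3 fixed pairs with and without group means, and a pair with Hcn4 was not run because it had no probe set. With group means removed, the deviations within a group depend on one another, yet all 12 were permuted freely. The permutation p values of all 3 pairs may therefore be too small there. The members and lists were chosen with earlier results of these data known.

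All members are named. Full values are given for members called and otherwise for the 3 with the smallest p in each direction against wild type, and for a fixed set of others. Replicates are called biological in the labels, and no batch is recorded in them. The number of arrays limits the precision, with a median SE of a log2 fold change of 0.11. Deviations from group means correlated across genes between Hopx-null and wild-type arrays of the same number at r of 0.42, 0.42 and 0.15. For wild type with Hdac2-null r was 0.33, -0.25 and -0.15, and with double-null 0.12, -0.25 and 0.05. Double-null with Hdac2-null gave 0.25, 0.10 and 0.25, and with Hopx-null 0.29, -0.11 and 0.22. Arrays of unlike number were not compared, so pairing by number was not tested. Alternatives were other floors, filters, normalisations and probe sets, array weights, the replicate block, Xist as a covariate, fits of the compared groups alone and each array left out.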

Additional observations from a re-analysis of the deposited data

How the results depend on the processing

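The count of members called stayed at 0 in every comparison and every alternative run, with 1 exception. With array weights, 3 members passed in double-null against Hdac2-null, namely Casq1 (log2 0.86, adjusted p = 0.0114), Camk2d (0.22, adjusted p = 0.0177) and Pln (0.07, adjusted p = 0.0408). In that fit 951 of the 9667 genes tested were called, against 1 without weights, a share like that of the members (3 of 32). Of the 57 tested genes of the further list, 4 passed there, namely Camk2a, Gja4, Ppp1cb and Trpm7. The weight of double-null 2 was 7.98 and that of Hdac2-null 1 was 3.05, against 0.31 to 1.43 for the other arrays. Of 559 repeats of 23 named member values, 555 kept their direction and side of the threshold. None of the 23 had passed in the main fit and the repeats reuse the same arrays, so a kept side was likely beforehand. The count leaves out size, which moved for some, as for Kcnd3 in Hopx-null ventricles from log2 -0.41 to -0.09 with the higher floor. Camk2d and Casq1 passed as above. In Hopx-null against wild type Cacna1c was at log2 0.00637 without wild type 1 and Hopx-null 1 together, an alternative chosen after seeing the data, and the second Slc8a1 probe set was at -0.15. The replicate block gave arrays of the same number a shared term across all 4 genotypes. With it, 0 of 32 members were called in each comparison, and no other member call changed. Leaving out 1 array gave 0 members called each time, from a lowest of 0 to a highest of 0. Over all genes, leaving out wild type 3 gave 4 calls in Hdac2-null, 8 in double-null and 27 for loss of Hdac2 averaged over Hopx status, against 2, 3 and 2 with all arrays. Undetected members numbered 3 with the lower floor and 4 with the higher one. The causes were not tested. Signal over the floor limits what can be read for Kcnd2, Kcnd3 and Cacna1h, and for Gja4 of the further list.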
